A study of Rattus norvegicus with 12 samples.

Results

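Sirtuins are enzymes that use NAD to remove acetyl and other acyl groups from proteins, and NAMPT makes the NAD precursor nicotinamide mononucleotide from the nicotinamide that they release. SIRT1, SIRT6 and SIRT7 are mainly nuclear, SIRT2 is mainly cytoplasmic, and SIRT3, SIRT4 and SIRT5 are mitochondrial. In skeletal muscle the family is known for links between the supply of NAD, mitochondrial metabolism and the response to fasting and exercise. The genes *Sirt1* to *Sirt7* and *Nampt* were listed by name, 8 genes in all, and a probe was assigned to a gene when its RefSeq accession, version ignored, mapped to the rat symbol. This gave 8 probes for 6 of the 8 genes, out of 45598 probes on the array, of which 21109 carried a gene name. No probe was assigned to *Sirt1* or *Sirt2*, so these genes are not analysed here. The scanner marked 7 of the 8 probes as well above background on every one of the 12 arrays and the other on 10, and all 8 were tested. The probes and rat gene IDs are A_64_P089946 for *Sirt3* (293615), A_44_P325911 for *Sirt4* (304539), A_64_P089915 for *Sirt5* (306840), A_64_P089931 for *Sirt6* (299638), A_44_P1054967 and A_64_P089927 for *Sirt7* (303745), and A_42_P570241 and A_43_P18467 for *Nampt* (297508). Of 2 probes of a gene, the brighter is given first and leads the counts.

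The samples were L6 myotubes, the fused form of a muscle cell line from the rat, and the labels give 6 days of differentiation, while the methods of the study give another number. The 4 groups were treated for 24 h with the solvent DMSO alone (control), or with 60 µM of GR24, pinosylvin or resveratrol in DMSO, with 3 arrays in each group. GR24 is a synthetic analogue of the plant hormones called strigolactones. Pinosylvin and resveratrol are plant stilbenes, and resveratrol carries a further hydroxyl group on the ring that has none in pinosylvin. A single culture system at 1 dose and 1 time was measured, and mRNA levels do not give the amount or activity of the proteins. A signal of 0 on the log2 scale used below equals the 75th percentile of the spots on that array, and levels of different probes are not compared. Between 58.0% and 64.3% of the spots of an array were well above background. The number of arrays limits the precision, and p-values measure only the spread between these 12 samples.

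GR24 raised the mRNA of 5 of the 6 measured genes, namely *Sirt3*, *Sirt4*, *Sirt6*, *Sirt7* and *Nampt*, by 1.29-fold to 1.85-fold against control. *Sirt5* was the exception and did not pass the test, which was limma's moderated test with p-values adjusted over all tested probes. In bulk RNA, fewer cells of a type and less RNA per cell cannot be told apart. These 5 calls stand against a broad response, since 60.1% of all tested probes passed the threshold of 0.05 with GR24, and 38.0% passed as higher. The median log2 fold change of all tested probes with GR24 was 0.13, and that of the 5 sirtuin genes was 0.52. The quartiles of all tested probes, -0.26 and 0.52, describe single probes and do not give the spread of a median of 5 genes. With pinosylvin and with resveratrol against control, 2 of the 6 genes passed in each case, where 20.5% and 19.7% of all tested probes did. Without a filter on dim probes these shares were 30.3% for GR24, 6.45% for pinosylvin and 7.02% for resveratrol, and with the replicate number as a block they were 67.5%, 29.4% and 27.3%. Setting the percentile over probes in place of spots lowered the median of all tested probes with GR24 by 0.10, and centring on the median of the tested probes lowered it by 0.11. Relative to that centre the log2 fold changes with GR24 were 0.41 for *Sirt3*, 0.66 for *Sirt4*, 0.48 for *Sirt7* and 0.78 for *Nampt*, all still past the threshold as higher. *Sirt6* was then 0.26 and did not pass (adjusted p = 0.0907, over all alternatives 0.000898 to 0.0907), and it did not pass with the percentile over probes either (0.0684).

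**Figure D1:**
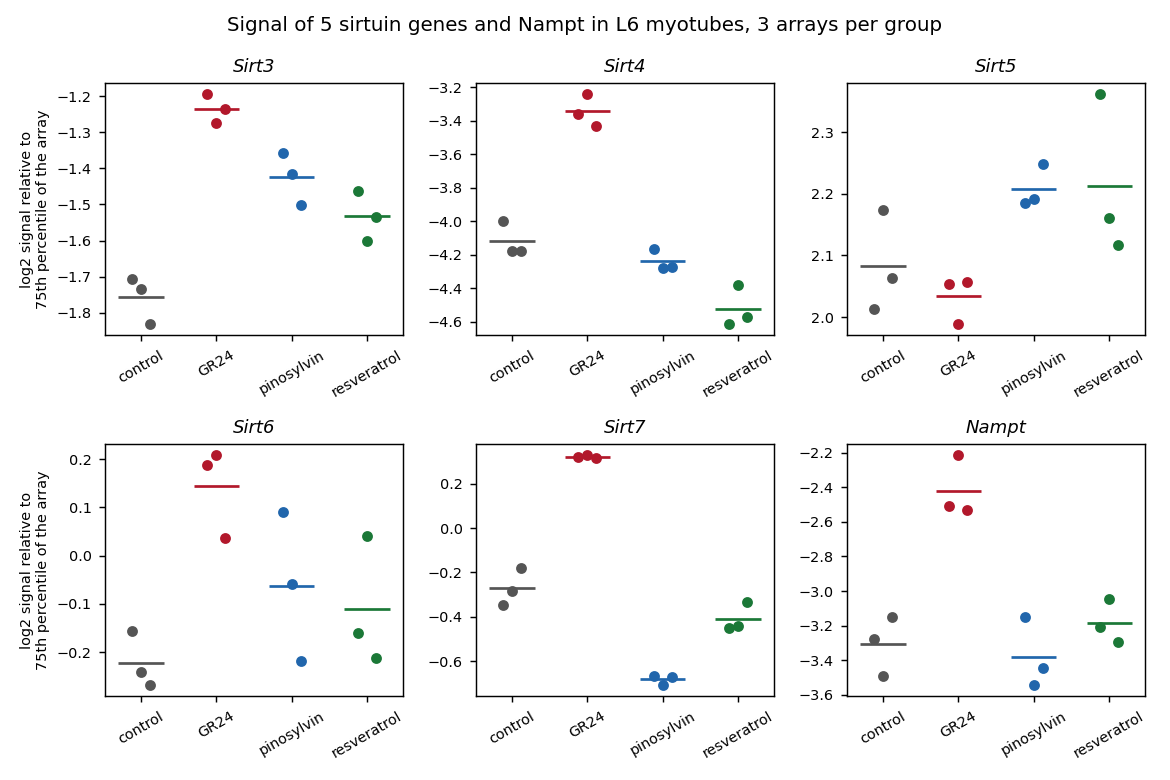
Log2 signal relative to the 75th percentile of the array (vertical axis, a separate scale for each gene) in the control, GR24, pinosylvin and resveratrol groups. Each point is 1 array, 3 per group, and the horizontal line is the group mean. Of 24246 probes, 63.9% had no overlap between GR24 and control arrays, in either direction. The GR24 points lie above all control points for every gene shown except *Sirt5*.

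*Nampt*, the gene of the enzyme that controls the salvage route to NAD, had control signals of -3.27, -3.49 and -3.15. Its GR24 signals were -2.51, -2.22 and -2.53, above all 9 arrays of the other groups. Pinosylvin gave -3.15, -3.54 and -3.45, and resveratrol gave -3.21, -3.04 and -3.30, both overlapping the control. The log2 fold change with GR24 was 0.89 (SE 0.13, 95% confidence interval 0.59 to 1.18, adjusted p = 0.000203), or 1.85-fold. Within the slide that held replicates 1 and 2 it was 1.02, and within the slide that held replicate 3, with 1 array per group, it was 0.62. With pinosylvin the log2 fold change was -0.08 (interval -0.37 to 0.22), and with resveratrol 0.12 (interval -0.18 to 0.42). The signs differed between the slides, at 0.04 and -0.30 with pinosylvin and at 0.26 and -0.15 with resveratrol, and the resveratrol value ran from 0.03 to 0.20 with single arrays left out. A dimmer second *Nampt* probe, well above background on 10 arrays, gave 0.66 with GR24 (interval -0.07 to 1.38) and did not pass. For this probe 1 pinosylvin array and 1 resveratrol array were not well above background. Its resveratrol value of -0.47 had the opposite sign to that of the brighter probe, and neither passed.

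Among the mitochondrial sirtuins, *Sirt3* encodes the main deacetylase of mitochondrial proteins. Its control signals were -1.71, -1.73 and -1.83, and its GR24 signals were -1.19, -1.28 and -1.23. Pinosylvin gave -1.36, -1.41 and -1.50, and resveratrol gave -1.46, -1.60 and -1.53. The 9 arrays with a compound lay above the 3 control arrays, and the group means ran from GR24 through pinosylvin and resveratrol to control. Of 24246 probes, 63.9% with GR24, 35.0% with pinosylvin and 34.7% with resveratrol had no overlap with the control arrays, in either direction. *Sirt3* changed by 0.52 with GR24 (SE 0.06, adjusted p = 3.77e-05), 0.33 with pinosylvin (SE 0.06, adjusted p = 0.00429) and 0.22 with resveratrol (SE 0.06, adjusted p = 0.0297). *Sirt3* passed as higher with each of the 3 compounds, where 38.0%, 11.5% and 9.17% of all tested probes did so with GR24, pinosylvin and resveratrol. These 3 comparisons share the control arrays, and the share of all tested probes higher in all 3 was not counted. The resveratrol call was the least firm, and was lost in 9 of 23 alternative settings, among them the fits without control replicate 2 (adjusted p = 0.0590), without control replicate 3 (0.0846), without resveratrol replicate 1 (0.105) and without resveratrol replicate 3 (0.0762), in a range of 0.0114 to 0.133 over all alternatives. Pinosylvin and resveratrol, neighbours in this order, did not differ past the threshold (log2 difference 0.11, interval -0.03 to 0.25).

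*Sirt4* encodes a mitochondrial enzyme known to restrain glutamate dehydrogenase. It had control signals of -4.0, -4.18 and -4.18 and GR24 signals of -3.36, -3.24 and -3.43. Pinosylvin gave -4.17, -4.28 and -4.27, and resveratrol gave -4.61, -4.38 and -4.57. The GR24 arrays lay above all others and the resveratrol arrays below all others. No overlap with the control arrays, in either direction, was found for 63.9% of 24246 probes with GR24 and 34.7% with resveratrol. GR24 raised it by 0.77 on the log2 scale (SE 0.08, adjusted p = 1.86e-05), a rise of 1.71-fold. With resveratrol it was -0.40 (interval -0.59 to -0.22, adjusted p = 0.00712). The resveratrol call was lost in 4 of 23 alternatives, namely quantile normalization (adjusted p = 0.0525), normexp with quantile normalization (0.0774), the deposited table (0.0903) and the slide of replicates 1 and 2 alone (0.0522), in a range of 0.00365 to 0.0903. With pinosylvin the value was -0.12 (interval -0.31 to 0.06) and did not pass, and it ran from -0.16 to -0.06 with single arrays left out.

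*Sirt5* encodes a mitochondrial enzyme that removes succinyl and malonyl groups. Its signals ran from 2.01 to 2.17 in the control, from 1.99 to 2.06 with GR24, from 2.18 to 2.25 with pinosylvin and from 2.12 to 2.36 with resveratrol. The GR24 and control arrays overlapped, and the log2 fold change was -0.05 (interval -0.21 to 0.11). It was -0.16 when centred on the median of the tested probes and -0.15 with the percentile over probes, not past the threshold in either, and -0.08 to -0.0047 with single arrays left out. The values with pinosylvin and resveratrol were both 0.13, with intervals of -0.04 to 0.29 and -0.03 to 0.29, and ran from 0.09 to 0.17 and from 0.06 to 0.18 with single arrays left out. None of the 3 passed, and a miss of the threshold does not show that the groups were alike.

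Of the nuclear members, *Sirt7* encodes an enzyme linked to ribosomal RNA transcription. Its brighter probe had control signals of -0.35, -0.29 and -0.18, and GR24 signals of 0.32, 0.33 and 0.32. Pinosylvin gave -0.67, -0.71 and -0.67, and resveratrol gave -0.45, -0.44 and -0.33. GR24 lay above and pinosylvin below all other arrays, so that they moved this gene in opposite directions. No overlap with the control arrays, in either direction, was found for 63.9% of 24246 probes with GR24 and 35.0% with pinosylvin. It changed by 0.59 with GR24 (SE 0.06, adjusted p = 8.35e-06) and -0.41 with pinosylvin (SE 0.06, adjusted p = 0.000754). With resveratrol it was -0.14 (interval -0.27 to -0.01, adjusted p = 0.128) and did not pass. The dimmer *Sirt7* probe gave 0.64 with GR24, which passed, and -0.31 with pinosylvin, which did not (adjusted p = 0.0619).

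*Sirt6* encodes a chromatin enzyme that acts on histone H3. Its control signals were -0.16, -0.24 and -0.27 and its GR24 signals 0.19, 0.21 and 0.04. Pinosylvin ran from -0.22 to 0.09 and resveratrol from -0.21 to 0.04, which overlapped the control in both cases. With GR24 the log2 fold change was 0.37 (interval 0.15 to 0.58, adjusted p = 0.00670), the smallest of the 5 rises. With pinosylvin it was 0.16 (interval -0.05 to 0.37) and with resveratrol 0.11 (interval -0.10 to 0.32), neither past the threshold. With single arrays left out these ran from 0.08 to 0.24 and from 0.04 to 0.16, and again did not pass.

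**Figure D2:**
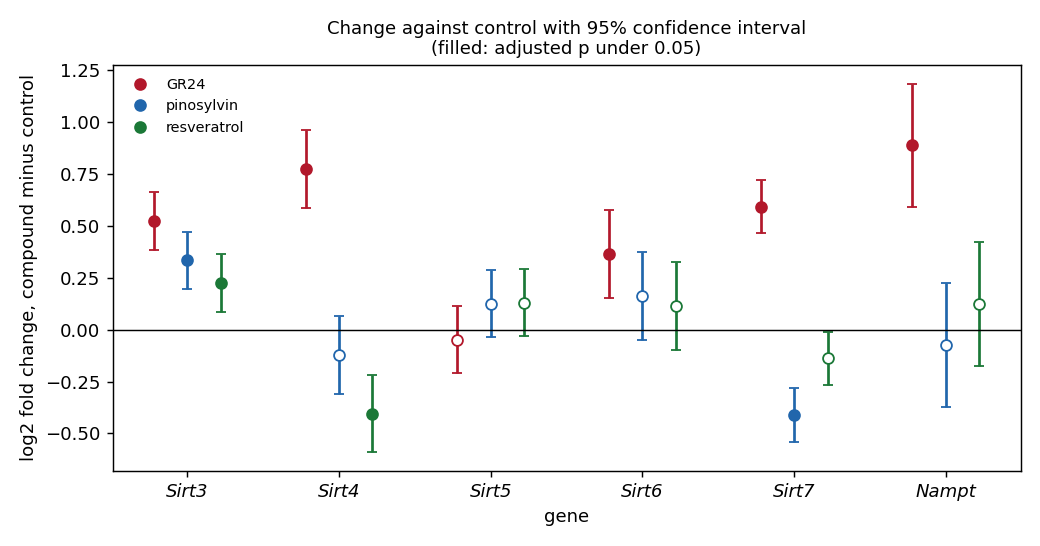
Log2 fold change of each gene against control (vertical axis) with GR24, pinosylvin and resveratrol, from 3 arrays per group. Bars are 95% confidence intervals, filled points passed the threshold and open points did not. The highest point is that of *Nampt* with GR24 at 0.89, and the lowest that of *Sirt7* with pinosylvin at -0.41.

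The compounds were given at the same dose for the same time and were set against each other in 3 pairs, each adjusted over all tested probes. Pinosylvin and resveratrol, which differ by the hydroxyl group, differed past the threshold in 2 of 6 genes, where 17.7% of all tested probes did. That share was 26.6% with the replicate number as a block, 27.3% with the slide as a block, 11.6% without pinosylvin replicate 2 and 5.51% without a filter on dim probes. *Sirt7* was lower with pinosylvin than with resveratrol (log2 difference -0.27, SE 0.06, adjusted p = 0.00922), and it lost this call without a filter on dim probes (adjusted p = 0.0529, range 0.00330 to 0.0529). The dimmer *Sirt7* probe gave -0.20 and did not pass (adjusted p = 0.220). *Sirt4* was higher with pinosylvin (0.28, SE 0.08, adjusted p = 0.0425), but this call was lost in 15 of 23 alternatives (adjusted p 0.0221 to 0.349). Among these were the fits without pinosylvin replicate 1 (0.125), 2 (0.0841) or 3 (0.0732) and without resveratrol replicate 1 (0.127) or 3 (0.126). For the other genes the intervals of the difference were -0.49 to 0.10 for *Nampt*, -0.17 to 0.16 for *Sirt5* and -0.16 to 0.26 for *Sirt6*.

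Between GR24 and pinosylvin 4 of 6 genes passed, all higher with GR24, where 58.6% of all tested probes passed and 35.6% were higher. *Sirt7* had the largest difference at 1.00 (SE 0.06), followed by *Nampt* at 0.96 and *Sirt4* at 0.89. The dimmer *Nampt* probe gave 0.74 and did not pass (adjusted p = 0.0744). Between GR24 and resveratrol that probe gave 1.13 and passed (adjusted p = 0.0128), with 1 resveratrol array not well above background. Between GR24 and pinosylvin *Sirt3* passed at 0.19 (adjusted p = 0.0230). Its call was lost in 11 of 23 alternatives (0.00867 to 0.325). Among these were the fits without GR24 replicate 1 (0.0795) or 3 (0.0519) and without pinosylvin replicate 3 (0.0815). The *Sirt3* value itself fell to 0.10 with the percentile over probes and when centred on the median of the tested probes. Against pinosylvin *Sirt6* did not pass at 0.21 (adjusted p = 0.0873). It passed with the replicate number as a block (adjusted p = 0.0311), with the slide as a block (0.0222) and without pinosylvin replicate 1 (0.0322), in a range of 0.0222 to 0.428. Between GR24 and resveratrol 5 of 6 genes passed, again all higher with GR24, where 56.0% of all tested probes passed and 35.9% were higher. *Sirt4* led with 1.18 (SE 0.08), and *Sirt6* was last at 0.25 (adjusted p = 0.0423), a call lost in 13 of 23 alternatives (0.00839 to 0.368). These included the fits without GR24 replicate 1 (0.114) or 2 (0.122) and without resveratrol replicate 1 (0.115) or 3 (0.140). With the percentile over probes, and when centred on the median of the tested probes, the *Sirt6* value fell to 0.14. Centring on the median of the tested probes moved the median of this comparison by 0.11. *Sirt3*, at 0.30 against resveratrol in the main fit (adjusted p = 0.00208), then fell to 0.18 and did not pass (adjusted p = 0.0912, range 0.000792 to 0.0912). With the percentile over probes it did not pass either (0.0691). *Sirt5* was -0.17 against pinosylvin (adjusted p = 0.0612) and -0.18 against resveratrol (adjusted p = 0.0576), neither past the threshold. It passed as lower with GR24 in 5 and 9 of 23 alternatives, the latter including the fit without resveratrol replicate 3 (0.0353, range 0.0135 to 0.214).

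The other genes of the NAD synthesis and salvage list did not move one way as a set. With GR24, of 14 tested genes of this list, *Nampt* included, 6 were higher and 5 lower, where 38.0% of all tested probes were higher and 22.1% lower. Their median log2 fold change was 0.09 against 0.13 for all tested probes. *Nmrk1*, whose enzyme phosphorylates nicotinamide riboside, rose by 1.59. *Nadsyn1* rose by 1.15, *Naprt* by 0.69 and *Nmnat1* by 0.53 on its brighter probe and 0.47 on the other. *Nadk*, a kinase that makes NADP from NAD, rose by 1.26 on its brighter probe and by 0.58 on the other. *Nnt*, the transhydrogenase of the inner mitochondrial membrane, had a log2 fold change of -1.43. *Afmid* had -0.97, *Qprt* -0.81 and *Nadk2* -0.51. By their leading probes *Nmnat2* (-0.40), *Nnmt* (0.13) and *Slc25a51* (0.05) did not pass, while another *Slc25a51* probe passed at 0.26. *Nt5e*, an ecto-nucleotidase with 1 of 3 GR24 arrays well above background, was at least 2.58-fold lower. For such a bound each GR24 signal was first raised, where it lay lower, to the dimmest level on its array that the scanner marked as above background. With pinosylvin 0 of the 14 were higher in limma, against 1 at an unadjusted p under 0.05, and 3 were lower, *Nnmt* (-0.49), *Qprt* (-0.48) and *Nnt* (-0.30), where 11.5% of all tested probes were higher and 8.95% lower. With resveratrol 1 was higher and 4 lower, where 9.17% of all tested probes were higher and 10.5% lower. The lower genes were *Nt5e* at -1.47 (SE 0.33), *Qprt* at -1.25 (SE 0.09, adjusted p = 1.85e-05), *Nnt* (-0.27) and *Nadk2* (-0.27). *Qprt* makes nicotinic acid mononucleotide from quinolinate. *Nt5e* was dim with resveratrol, at a mean signal of -7.25 against -7.53 with GR24, though all 3 resveratrol arrays were well above background. A further 6 genes of the list, *Haao*, *Kynu*, *Kmo*, *Ido1*, *Tdo2* and *Acmsd*, all of tryptophan breakdown, had no array with a signal well above background.

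Of 13 tested NAD-consuming enzymes other than sirtuins, 7 were higher and 4 lower with GR24, against 38.0% and 22.1% of all tested probes, and their median was 0.31 against 0.13. *Parp16*, which modifies proteins of the endoplasmic reticulum, rose by 0.58. *Art1*, *Art3* and *Art5* were among the 4 lower genes. They were named by size and not tested as a group, and *Art4*, of the same list, was well above background on 0 arrays. *Art1*, with 1 of 3 GR24 arrays well above background, was at least 30.6-fold lower. *Art5*, well above background on 0 GR24 arrays, was at least 4.29-fold lower. *Art3* had a log2 fold change of -0.67. With pinosylvin 1 was higher, *Art1* at 0.91, and 1 lower, *Parp1* at -0.24. With resveratrol 1 was higher, *Parp16* at 0.24, and 1 lower, *Parp3* at -0.46. Of all tested probes 20.5% and 19.7% passed in these comparisons.

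Among 5 tested genes listed as regulators of SIRT1 or its gene, 3 were higher and 1 lower with GR24, where 60.1% of all tested probes passed, with a median of 0.21 against 0.13 for all tested probes. *Usp22*, a deubiquitinase, rose by 0.40 and *Ctbp1*, a corepressor, by 0.16, while *Senp1*, a SUMO protease, had -0.18. *Hic1*, a repressor of *Sirt1* transcription, rose by 0.30 with GR24 and by 0.30 with pinosylvin on its brighter probe. Its other probe gave -0.15 and -0.07, neither past the threshold. With resveratrol 0 of the 5 passed in limma, and 1 had an unadjusted p under 0.05. The share of all tested probes that passed was 20.5% with pinosylvin, where *Hic1* was 1 of 5, and 19.7% with resveratrol.

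Of 13 tested genes of textbook sirtuin substrates, 5 were higher and 2 lower with GR24, against 38.0% and 22.1% of all tested probes, with a median of 0.10 against 0.13. *Foxo3*, a forkhead transcription factor, rose by 0.64 and *Hif1a*, a subunit of the hypoxia-inducible factor, by 0.53. *Idh2*, a mitochondrial target of SIRT3, had -0.98 and *Tuba1a*, an alpha tubulin, -0.83. With pinosylvin 1 was higher and 1 lower, namely *Sod2*, the mitochondrial superoxide dismutase, at 0.34 and *Acss2*, a cytosolic acetyl-CoA synthetase, at -0.94 (SE 0.09, adjusted p = 6.62e-05). With resveratrol 1 was higher and 1 lower, both targets of SIRT4, namely *Mlycd* at 0.34 and the glutamate dehydrogenase gene *Glud1* at -0.21. Of all tested probes 11.5% were higher and 8.95% lower with pinosylvin, and 9.17% and 10.5% with resveratrol.

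The zinc-dependent histone deacetylases, which do not use NAD, had 3 genes higher, 1 lower and 3 not past among 7 tested with GR24, where 60.1% of all tested probes passed, and their median was 0.10 against 0.13. The lower gene was *Hdac11* at -1.51, and *Hdac3* rose by 0.53, *Hdac5* by 0.44 and *Hdac1* by 0.40. *Hdac4* counted as not past by its brighter probe (0.10), while its other probe passed as higher (0.43, adjusted p = 0.00124). With pinosylvin 2 rose, *Hdac11* at 0.25 and *Hdac4*, on its brighter probe, at 0.24, whereas the other *Hdac4* probe did not pass (0.09). With resveratrol 0 of the 7 passed in limma, where 1 had an unadjusted p under 0.05. The shares of all tested probes that passed were 20.5% and 19.7%.

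Markers of the labelled cell type moved with the compounds as well. All 7 tested myotube markers were lower with GR24, with a median of -2.48, where 22.1% of all tested probes were lower and their median was 0.13, and *Myog* had the largest change at -5.73. *Myh3*, embryonic myosin, had -0.90 and stayed well above background on all 12 arrays, as did *Myog*. The mean signal of the 7 markers was 3.19, 3.26 and 3.10 on the control arrays and 0.53, 0.38 and 0.53 on the GR24 arrays. With pinosylvin it was 3.41, 3.41 and 3.34, and with resveratrol 2.71, 2.80 and 2.69. Of the 7 markers 2 were higher with pinosylvin, *Myog* (0.74) and *Tnnt3* (0.55), and 6 were lower with resveratrol, with a median of -0.33. Of all tested probes 11.5% were higher with pinosylvin and 10.5% lower with resveratrol. Of 4 tested markers of proliferating or undifferentiated myoblasts 3 were lower with GR24, among them *Mki67* at -2.73. *Mki67* and *Ccnb1*, genes of dividing cells, were also lower with pinosylvin (-1.64 and -1.73) and with resveratrol (-0.82 and -1.03). The other 2 markers of this list, *Myf5* and *Pax7*, did not pass with either, at -0.17 and 0.17 with pinosylvin and at -0.02 and 0.0016 with resveratrol. Of the leukocyte markers *Cd68* was higher with GR24 at 2.77 and *Csf1r* did not pass. *Ptprc* was above background on 0 arrays and *Adgre1* on 3, and neither was tested. With pinosylvin and with resveratrol neither *Cd68* nor *Csf1r* passed. Of 4 fibroblast markers 1 was higher and 2 lower with GR24 and with pinosylvin, and 1 was higher and 1 lower with resveratrol. Of all tested probes 38.0% were higher and 22.1% lower with GR24. These shares were 11.5% and 8.95% with pinosylvin, and 9.17% and 10.5% with resveratrol. The adipocyte marker *Cebpa* was higher with GR24 on both of its probes (1.28 and 1.39). With pinosylvin and with resveratrol its brighter probe passed (0.33 and 0.42) and the other did not (0.23 and 0.21), while *Adipoq* was above background on 0 arrays and *Fabp4* on 2. The tested endothelial marker *Cdh5*, at -0.34 with GR24, did not pass with any of the 3 compounds. *Pecam1*, above background on 5 arrays, and *Kdr*, on 4, were not tested. The part of these shifts in the sirtuin and *Nampt* values was not tested.

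The genes whose 12 signals were most like those of a member are given as a description, over 12 arrays that share 4 groups. For *Nampt* they were *Tiprl*, *Zfp652* and *Fcho2*, for *Sirt3* *Trub2*, *Dvl1* and *Gstt1*, and for *Sirt4* *Acsl5*, *Pde8a* and *Ints10*. For *Sirt6* they were *Pcbp3*, *Mfn2* and *Eif3h*, and for *Sirt7* *Ruvbl2*, *Aida* and *Tmem43*. Pearson r with the member was between 0.972 and 0.994 for all 15 genes, among 10727 genes compared.

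The promoter table of RefSeq (assembly GRCr8) held 6 of the 8 genes and no entry for *Nampt* or *Sirt6*. The 250 bases before the start are shown for *Sirt3* (chr1:205393602-205393851, minus strand) and *Sirt4* (chr12:46791680-46791929, plus strand), the mitochondrial members that rose with GR24. *Sirt7*, which also rose with GR24, is not shown. The bases are written 5′ to 3′, where a motif match would be in capitals. The ARE core TGACNNNGC and the E-box CACGTG were searched on both strands. The window of *Sirt1* held 1 ARE core and 2 E-boxes, the ARE core overlapping an E-box, and those of *Sirt2*, *Sirt3*, *Sirt4*, *Sirt5* and *Sirt7* held 0 matches of either. Of 33469 promoters of this length 10.1% held the ARE core and 5.59% the E-box. A match is a description of the letters, and no match says only that these letters are not in this window.
*Sirt3*: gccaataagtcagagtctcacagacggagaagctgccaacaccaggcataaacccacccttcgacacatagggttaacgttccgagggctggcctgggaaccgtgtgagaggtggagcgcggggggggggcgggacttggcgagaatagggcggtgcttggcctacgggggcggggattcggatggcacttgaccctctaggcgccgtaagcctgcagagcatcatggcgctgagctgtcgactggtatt
*Sirt4*: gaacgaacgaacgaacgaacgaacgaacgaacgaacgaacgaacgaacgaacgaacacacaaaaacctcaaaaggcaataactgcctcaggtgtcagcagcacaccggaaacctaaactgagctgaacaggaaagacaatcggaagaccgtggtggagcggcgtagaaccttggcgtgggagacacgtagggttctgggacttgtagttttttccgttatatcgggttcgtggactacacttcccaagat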

How the data were processed

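Total RNA of 12 cultures was hybridised to 1-colour Agilent arrays. The authors read them with Agilent Feature Extraction 12.0.0.7, and what they deposited per spot is an intensity, less the background estimated on the same array. The deposited series table holds log2 values of the authors for 25848 probes, with column medians of 9.21 to 9.24 and r of 0.992 to 0.995 with the log2 signals used here, and its centring is not given in the sources used here. Here each deposited intensity was put on the log2 scale and set against the 75th percentile of the 58717 spots, controls aside, on its array. Spots marked as outliers were left out, and the mean over the spots stood for a probe. Testing was limited to the 24262 probes with more than 0.5 of their spots well above background in all 3 replicates of some group. Counting probes with exactly 0.5 as above background adds 17. Probes were named through RefSeq accessions of the table of assembly GRCr8, which named 21109 of 45598. Where a gene had several probes, the one with the highest mean over 12 arrays led.

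limma 3.58.1 fitted 1 mean per group to all 12 arrays, with eBayes, 6 contrasts and two-sided tests, and p-values were adjusted by Benjamini-Hochberg across the tested probes, with a threshold of 0.05. The script was tested on simulated data. Replicates 1 and 2 of all groups shared a slide, and replicate 3 of all groups shared another. The labels number the replicates, and the methods describe separate experiments. Deviations of arrays with the same number correlated at 0.191 to 0.744 in every pair, with the highest values for replicate 3 (0.638 to 0.744). Replicate 3 had a slide of its own, so its number and its slide cannot be told apart. The numbers were taken to pair the arrays, and a fit with this block is an alternative.

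Other settings were tried 1 at a time. For scaling these were quantile normalization, normexp (offset 50, median signals) followed by either scaling, the deposited table, and the percentile taken over probes above background on every array. For the choice of data they were no filter, a filter requiring all 12 arrays, only the 6 arrays of a comparison, only the slide of replicates 1 and 2, outlier spots kept, and each array left out. For the model they were a block for replicate number or for slide, trend and robust eBayes, and a gene's mean over its probes. The percentile over probes in place of spots, centring on the median of the tested probes and the other reading of ties were chosen after seeing the data. The members and lists were chosen with earlier results of these data known. Named were all members, of each list the genes past the threshold without overlap of the groups, up to 4 per compound by size, and the 3 genes most like each member that passed. Of NAD synthesis and salvage all 14 tested genes were named with GR24. Markers were named as examples of their lists.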

Additional observations from a re-analysis of the deposited data

How the results depend on the processing

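Every call of *Sirt3*, *Sirt4*, *Sirt7* and *Nampt* against control with GR24, and those of *Sirt3* and *Sirt7* with pinosylvin, kept direction and side of the threshold in all 23 alternatives run for each. Over these the log2 fold change with GR24 ran from 0.41 to 0.55 for *Sirt3*, 0.59 to 0.83 for *Sirt4*, 0.48 to 0.64 for *Sirt7* and 0.69 to 1.02 for *Nampt*. *Sirt6* with GR24 ran from 0.26 to 0.42 and did not pass with either added scaling. Of 828 single values under an alternative, 744 kept direction and side, 57 no longer passed, 17 newly passed and 10 changed sign, with 0 of these past the threshold before or after.

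The number of genes past the threshold with resveratrol against control fell from 2 to 1 with quantile normalization, normexp with quantile normalization, the deposited table, no filter, the 6 arrays compared and both added scalings, and to 0 on the slide of replicates 1 and 2 alone, a fit with fewer arrays. For pinosylvin against resveratrol it fell from 2 to 1 with quantile normalization, normexp with quantile normalization, the deposited table, the 6 arrays compared and both added scalings, on that slide, with the percentile over probes above background on all arrays and with the trend and robust settings, and to 0 without a filter. Leaving out single arrays gave 1 to 2 for each of these comparisons, 5 for GR24 and 2 for pinosylvin against control, 3 to 5 for GR24 against pinosylvin and 4 to 5 for GR24 against resveratrol. The cause was not tested. With the replicate block, 5 genes passed for GR24 against pinosylvin in place of 4, and no other call of the leading probes changed.

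*Nampt* changed sign with pinosylvin on the slide of replicates 1 and 2 (0.0365), without pinosylvin replicate 2 (0.00590) and without control replicate 3 (0.00306), where single arrays left out gave -0.190 to 0.00590. With the mean over its probes it changed sign with resveratrol (-0.177) and for pinosylvin against resveratrol (0.0959). For pinosylvin against resveratrol *Sirt5* ran from -0.0530 to 0.0692 with single arrays left out, and *Sirt6* from -0.0286 to 0.126.

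Among all tested probes that passed, the share higher moved from 63.2% to 54.4% for GR24 against control when centred on the median. With the percentile over probes in place of spots it was 55.2%. When centred, the share moved from 56.3% to 46.3% for pinosylvin against control and from 64.1% to 52.9% for GR24 against resveratrol. For GR24 against pinosylvin it then moved from 60.7% to 52.8%. For pinosylvin against resveratrol it moved from 58.7% to 46.7% with quantile normalization. For resveratrol against control it was 46.7%, 54.3% with quantile normalization and 56.4% with the percentile over probes above background on all arrays. Signal over background limits the dimmer *Nampt* probe.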
